A study of Mus musculus with 2 samples.

Results

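The keratin genes of luminal and basal mammary epithelium were examined for regions bound by Etv4 or Etv5 in EpRas cells. The set comprised 10 of the 53 protein-coding keratin genes of the mouse. Krt8, Krt18, Krt7 and Krt19 were taken as luminal keratins, Krt5, Krt14, Krt15, Krt17 and Krt6a as basal keratins, and Krt80 was placed in neither group. A listed region belonged to a keratin gene when it lay inside the gene or within 50 kb of it in the mm10 build, with gene borders from GENCODE release M21. By this rule 35 of the 13636 Etv4 regions and 21 of the 8297 Etv5 regions were assigned to the 10 genes. Neighbouring windows overlapped, and 19 of the 35 Etv4 regions and 11 of the 21 Etv5 regions fell in more than 1 of them.

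Both libraries came from EpRas cells, an H-Ras-transformed derivative of the mouse mammary epithelial line EpH4. They were grown in 4% serum and had received 1 ng/ml TGF-β3, 1.5 h before they were fixed. The sources used here describe no untreated, non-transformed or input library for these lists, so every value refers to Ras-transformed and TGF-β-treated cells. The 2 libraries differed in the antibody, a rabbit polyclonal antibody to Etv4 and a mouse monoclonal antibody to Etv5. There was 1 library per antibody, and a difference between the lists could not be compared with a spread between replicates or told apart from a difference in antibody or depth, which is unknown. The lists hold positions and no RNA levels. The words luminal and basal therefore name groups of genes, and whether EpRas cells express them was not analysed here.

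Keratins are the intermediate filament proteins of epithelia, and a filament is built from pairs of a type I and a type II chain. Krt8 pairs with Krt18 in simple and luminal epithelium, whereas Krt5 pairs with Krt14 in basal cells. In the mouse, most type I genes lie together on chromosome 11 and the type II genes lie together on chromosome 15, where the type I gene Krt18 stands next to Krt8. Loss of keratin filaments and gain of vimentin are textbook features of the epithelial-mesenchymal transition (EMT), which TGF-β induces in EpRas cells. Etv4 and Etv5 are ETS family transcription factors, which recognise DNA with a GGAA core.

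The sequences below are from GRCm38, the assembly named mm10, and run 5′ to 3′ in the direction of transcription of the nearest of the 10 genes. Capitals mark the ETS pattern (CAGGAAGT or CCGGAAGT), the AP-1 pattern (TGACTCA or TGAGTCA, which are each other's reverse complement) and the RUNX pattern (TGTGGTT or TGTGGTC), each on either strand. A match is a description of the letters and not a bound site. The ETS pattern is longer than the GGAA core, so sequence without a match can still hold that core. Unless the whole region is named, matches were counted in 500 bp around the midpoint of a region, which leaves out the ends of long regions and takes in flanking bases of short ones. Each of the first 4 windows lies at overlapping Etv4 and Etv5 regions that were within 2 kb of the start of 1 of the 10 genes or had an ETS pattern. They are chr11:100207549-100207767 on the minus strand, directly upstream of Krt14, chr15:102045727-102046026 on the plus strand, downstream of Krt18, chr15:101388155-101388454 on the minus strand, upstream of Krt80, and chr15:101455676-101455975 on the plus strand, downstream of Krt7.
Krt14 pair: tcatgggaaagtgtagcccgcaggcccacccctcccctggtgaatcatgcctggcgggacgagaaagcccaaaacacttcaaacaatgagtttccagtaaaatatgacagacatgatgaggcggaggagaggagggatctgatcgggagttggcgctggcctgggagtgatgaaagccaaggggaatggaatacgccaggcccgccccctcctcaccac
Krt18 pair: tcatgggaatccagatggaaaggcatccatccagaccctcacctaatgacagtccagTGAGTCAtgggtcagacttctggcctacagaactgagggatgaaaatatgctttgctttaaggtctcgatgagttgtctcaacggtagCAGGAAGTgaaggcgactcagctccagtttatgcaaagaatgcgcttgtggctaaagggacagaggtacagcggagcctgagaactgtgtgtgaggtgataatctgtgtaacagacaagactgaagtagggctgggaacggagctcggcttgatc
Krt80 pair: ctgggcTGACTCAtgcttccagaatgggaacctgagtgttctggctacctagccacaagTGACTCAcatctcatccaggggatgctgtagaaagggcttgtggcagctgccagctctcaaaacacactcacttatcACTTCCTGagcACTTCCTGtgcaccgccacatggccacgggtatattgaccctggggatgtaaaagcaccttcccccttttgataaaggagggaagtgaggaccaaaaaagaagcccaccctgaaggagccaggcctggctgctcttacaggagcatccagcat
Krt7 pair: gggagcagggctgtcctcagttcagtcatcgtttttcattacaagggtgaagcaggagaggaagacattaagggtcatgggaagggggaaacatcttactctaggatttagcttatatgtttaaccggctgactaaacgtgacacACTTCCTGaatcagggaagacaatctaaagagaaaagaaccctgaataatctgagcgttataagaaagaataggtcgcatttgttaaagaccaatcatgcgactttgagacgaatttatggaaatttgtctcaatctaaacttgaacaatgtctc

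The Krt14 window, which ends at the start of the gene, had no match to the 3 patterns, although it holds the GGAA core. The Krt18 window had an ETS and an AP-1 match. The Krt80 window had 2 ETS and 2 AP-1 matches. The Krt7 window had a single ETS match.

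A further 3 windows were chosen after their values were seen, because they hold several matches near Krt8 or Krt14. They are chr15:101995584-101995721 on the minus strand, a repeated ETS pattern downstream of Krt8, chr15:102005398-102005697 on the minus strand, in the Etv4 region directly upstream of Krt8, and chr11:100208484-100208783 on the minus strand, in the second Etv5 region upstream of Krt14.
Krt8 repeat: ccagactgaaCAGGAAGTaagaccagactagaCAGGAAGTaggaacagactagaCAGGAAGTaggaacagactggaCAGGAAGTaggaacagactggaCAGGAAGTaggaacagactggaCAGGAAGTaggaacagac
Krt8 upstream Etv4 region: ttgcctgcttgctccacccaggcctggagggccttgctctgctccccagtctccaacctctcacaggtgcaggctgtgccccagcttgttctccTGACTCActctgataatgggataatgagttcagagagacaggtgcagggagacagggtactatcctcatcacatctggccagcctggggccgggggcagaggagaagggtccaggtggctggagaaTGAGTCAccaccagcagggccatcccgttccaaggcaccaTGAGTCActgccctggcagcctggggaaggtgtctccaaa
Krt14 upstream Etv5 region: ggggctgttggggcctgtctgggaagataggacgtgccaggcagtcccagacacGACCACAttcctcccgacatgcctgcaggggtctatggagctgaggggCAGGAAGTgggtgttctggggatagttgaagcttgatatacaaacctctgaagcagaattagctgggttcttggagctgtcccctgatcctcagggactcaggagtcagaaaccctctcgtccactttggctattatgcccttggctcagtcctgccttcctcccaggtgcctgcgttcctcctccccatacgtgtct

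Regions of the Etv4 list lay in or within 50 kb of 8 of the 10 keratin genes, beside 53.4% of all 21938 protein-coding genes. Regions of the Etv5 list did so for 6 of the 10 genes, beside 42.7% of all genes. Both lists were present at 6 genes, namely Krt8, Krt18, Krt7, Krt14, Krt17 and Krt80, beside 36.4% of all genes, 54.4% of those of chromosome 11 and 55.9% of those of chromosome 15. Krt5 and Krt6a had a region of neither list. All 10 genes lie on chromosomes with a higher share, since Etv4 regions were within 50 kb of 71.7% of the protein-coding genes of chromosome 11 and 71.8% of those of chromosome 15. The corresponding Etv5 shares were 59.5% and 61.4%, so 8 and 6 of 10 genes were close to what these chromosomes had.

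The number of regions varied widely among the keratin genes. Krt7 had 14 Etv4 and 5 Etv5 regions, and Krt80 had 13 and 8. Only 0.287% of protein-coding genes had as many Etv4 regions as Krt7, and 0.579% had as many Etv5 regions as Krt80. These 2 genes stand side by side, and 9 of the Etv4 and 4 of the Etv5 regions were in the windows of both. Krt18 had 8 Etv4 and 6 Etv5 regions, Krt17 also had 8 and 6, and Krt8 had 7 and 4. Krt14 had 2 Etv4 and 3 Etv5 regions and was the only gene of the set with more Etv5 than Etv4 regions. Each region of Krt14 was also in the window of Krt17. Krt15 and Krt19 had the same single Etv4 region and no Etv5 region.

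**Figure D1:**
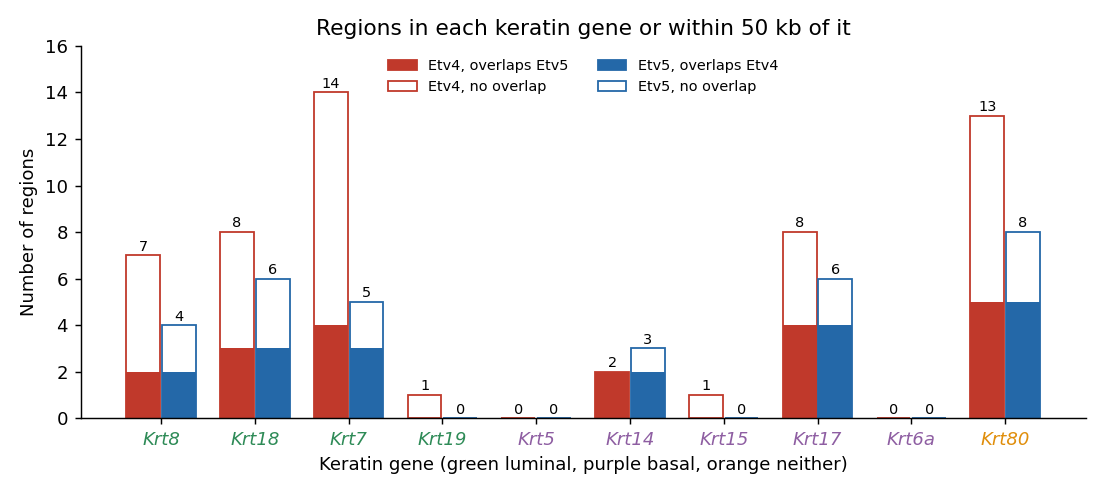
Number of listed regions (vertical axis) in each keratin gene or within 50 kb of it (horizontal axis), with Etv4 in red and Etv5 in blue, and with filled parts for regions that overlap the other list. Krt7 and Krt80 had the most Etv4 regions, 14 and 13, while Krt5 and Krt6a had 0 in both lists.

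As groups, all 4 luminal keratins had an Etv4 region and 3 of 4 had an Etv5 region, compared with 3 of 5 and 2 of 5 basal keratins. The median number of Etv4 regions per window was 7.5 for the luminal and 1.0 for the basal genes, and the median was 1.0 for all protein-coding genes and 2.0 for those of chromosome 11 and of chromosome 15. For Etv5, the medians were 4.5 for the luminal, 0.0 for the basal and 0.0 for all genes, and 1.0 on either chromosome. The groups overlapped in range, since the luminal Krt19 had 1 Etv4 and 0 Etv5 regions and the basal Krt17 had 8 and 6. The genes are few and share windows, and no test was made between the groups.

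The regions within 2 kb of the gene starts separated the genes further. Etv4 midpoints lay within 2 kb of the start of 5 of the 10 genes (Krt8, Krt18, Krt7, Krt14 and Krt80), beside 15.4% of all protein-coding genes. On chromosome 15 that share was 27.3% and on chromosome 11 it was 23.1%. Etv5 midpoints lay there at 2 of the 10 genes, Krt8 and Krt14, beside 8.73% of all genes, 16.7% of those of chromosome 15 and 13.8% of those of chromosome 11. Both lists were thus near the start of the luminal Krt8 and of the basal Krt14, beside 5.07% of all genes, 11.6% of those of chromosome 15 and 8.72% of those of chromosome 11. With the starts of all annotated transcripts counted, Krt80 joined Krt8 and Krt14, which made 3 Etv5 genes. The gene itself held an Etv4 region in 5 cases and an Etv5 region in 3 cases, beside 23% and 14.7% of all genes. On chromosome 11, where Krt14 was such a gene for both lists, the shares were 30.2% and 19.5%, and on chromosome 15 they were 37.7% and 24.1%.

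On chromosome 15, the regions lay at the ends of the keratin cluster. At one end, the joined windows of Krt80 and Krt7 held 18 Etv4 and 9 Etv5 regions in 183 kb, or 9.84 and 4.92 per 100 kb. At the other end, the joined windows of Krt8 and Krt18 held 8 and 6 in 135 kb, or 5.91 and 4.43 per 100 kb. The average over chromosome 15 was 0.877 and 0.567 per 100 kb. Between these ends no region of either list was found from chr15:101455914-101995390, a stretch of 539 kb with 23 protein-coding genes, of which 20 were keratins. The basal genes Krt5 and Krt6a lie inside it, and the nearest region of either list was 257 kb from the start of Krt5 and 239 kb from the start of Krt6a. Of the 16586 gaps between regions of the joined lists, 7.33% were at least as long, and these held 55% of all bases in gaps. Stretches of this length without a region thus made up much of the genome, but gaps of like gene content were not compared. Of the 36-mers in the stretch of 539 kb (sequences as long as a read of 36 bases), 8.75% had another copy in the assembly. This share was 13.7% in the joined windows of Krt6a and Krt5 and between 3.1% and 7.32% in the joined windows of the other pairs. In Krt6a itself, which has near-identical neighbours, it was 41.6%, and the part of repeated sequence in the absence of regions was not tested.

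**Figure D2:**
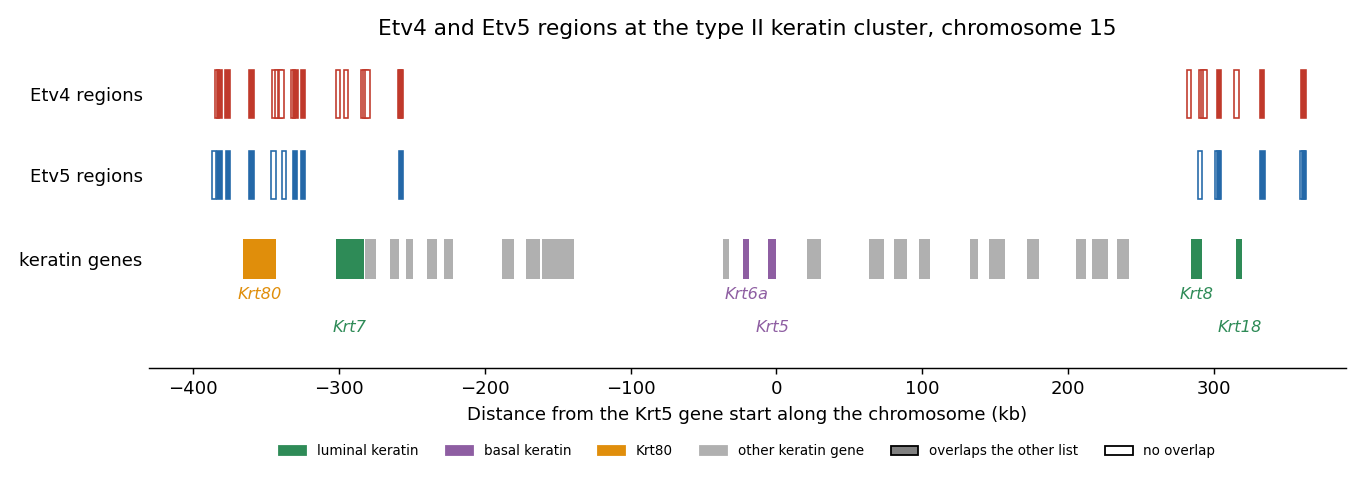
Listed regions and keratin genes along chromosome 15, by distance from the start of Krt5 in kb, with filled bars for regions that overlap the other list. Genes are drawn to scale, regions are drawn at a minimum width so that they can be seen, and only the regions assigned to the 10 genes are drawn; the stretch of 539 kb around Krt5 and Krt6a had no region of either list.

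Krt8, which encodes the type II chain of simple epithelia (ENSMUSG00000049382.10, chr15:101996698-102004482, minus strand), had regions of both lists around its start that did not overlap each other. The Etv4 region chr15:102003991-102004312, with its midpoint 0.331 kb downstream of the start, fell in an exon. In it 56.1% of the 36-mers had another copy in the assembly, which made it the only keratin region above 50%. The Etv4 region chr15:102005172-102005923 lay 1.06 kb upstream and contained the 3 AP-1 matches printed above. The Etv5 region chr15:102002723-102003319 was intronic, 1.46 kb downstream of the start. Another Etv4 region, chr15:102006496-102006796, was centred 2.16 kb upstream. Overlapping regions of both lists were found further upstream, at chr15:102015882-102016771 for Etv4 and chr15:102015939-102016370 for Etv5, 11.8 and 11.7 kb from the start. The overlap had 432 bp, and both regions had 2 AP-1 matches. A RUNX match at chr15:102016366-102016372 lay in the Etv4 region and crossed the end of the Etv5 region.

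Downstream of Krt8, the Etv4 region chr15:101995391-101996293, centred 8.64 kb from the start, carried the ETS pattern 6 times. The copies all read CAGGAAGT on the minus strand, and each began exactly 22 bp from the next, so they belong to a tandem repeat. No other of the 13636 Etv4 regions had 6 or more copies within 500 bp around its midpoint, and 0 of the 8297 Etv5 regions did. In the stretch with the copies, 49.4% of the 36-mers had another copy in the assembly, compared with 5.88% over the region. The region had no AP-1 match and no Etv5 counterpart.

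Krt18, which encodes the type I partner of Krt8 (ENSMUSG00000023043.7, chr15:102028180-102032027, plus strand), had its start spanned by the Etv4 region chr15:102027963-102028592, with the midpoint 0.097 kb from the start. This region had no ETS, AP-1 or RUNX match and did not overlap an Etv5 region, the nearest of which was 12.0 kb away. The pair printed above lay downstream, at chr15:102045315-102046286 for Etv4 and chr15:102045636-102046317 for Etv5, 17.6 and 17.8 kb from the start. Its members were number 1222 of the Etv4 list (8.96% of the list) and number 701 of the Etv5 list (8.45%), the lowest numbers among the keratin regions in both lists. This was also the only pair in which both windows around the midpoints had an ETS match, at chr15:102045872-102045879 on the plus strand, and both had an AP-1 match. The most distant pair of Krt18, 46.0 and 46.1 kb downstream, had its midpoints in an intron of the neighbouring translation initiation factor gene Eif4b.

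Krt7, which encodes a type II chain of ducts and other simple epithelia (ENSMUSG00000023039.17, chr15:101411043-101430313, plus strand), had 3 Etv4 and no Etv5 regions in the gene. The Etv4 region chr15:101411908-101412852 was centred 1.34 kb from the annotated start and 22 bp from the start of another Krt7 transcript, which it spanned together with a start of Gm671. It had a GC content of 66.6% in 500 bp around the midpoint and no match to the 3 patterns. At the 3′ end of Krt7, the Etv4 list had a run of 3 adjoining regions, chr15:101429412-101430330, chr15:101430338-101432018 and chr15:101432041-101433252, which reached into the keratin gene Krt87. With 919, 1681 and 1212 bp they included the longest keratin region of the set. None of the 3 had a match in the 500 bp around its midpoint or an Etv5 counterpart, although the first held 2 RUNX matches nearer its ends, and 17.8, 34.8 and 22.5% of their 36-mers had another copy in the assembly. Further downstream, the Etv5 region chr15:101455051-101455913 overlapped 2 Etv4 regions, by 82 and 611 bp, 44.4 kb from the start of Krt7 and nearest to the keratin gene Krt88.

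Krt80, a type II keratin of differentiating epithelia (ENSMUSG00000037185.9, chr15:101347444-101370162, minus strand), had its start spanned by the Etv4 region chr15:101370124-101370786, centred 0.293 kb upstream. A second Etv4 region, chr15:101368631-101369228, lay 1.23 kb downstream in an intron and had an ETS match. The nearest Etv5 region, chr15:101367962-101368321, was 2.02 kb downstream, just beyond the limit of 2 kb, and 0.373 kb from another annotated start of Krt80. An antisense gene, Gm35853, runs across Krt80 and its surroundings, and the midpoints of 11 Etv4 and 8 Etv5 regions lay in it. Of the 14 overlapping pairs of the set, 5 were nearest to Krt80. Among these, the regions chr15:101336419-101337223 for Etv4 and chr15:101336448-101337318 for Etv5, 33.3 kb downstream of the start, had the largest overlap, 776 bp. The pair printed above, chr15:101387978-101388847 for Etv4 and chr15:101388399-101388841 for Etv5, lay 18.2 and 18.5 kb upstream. Its 2 ETS matches were within 500 bp around the midpoint of the Etv4 region and not of the Etv5 region. Of 2 AP-1 matches in the Etv4 region, the Etv5 region held 1, and the other lay in its flank.

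**Figure D3:**
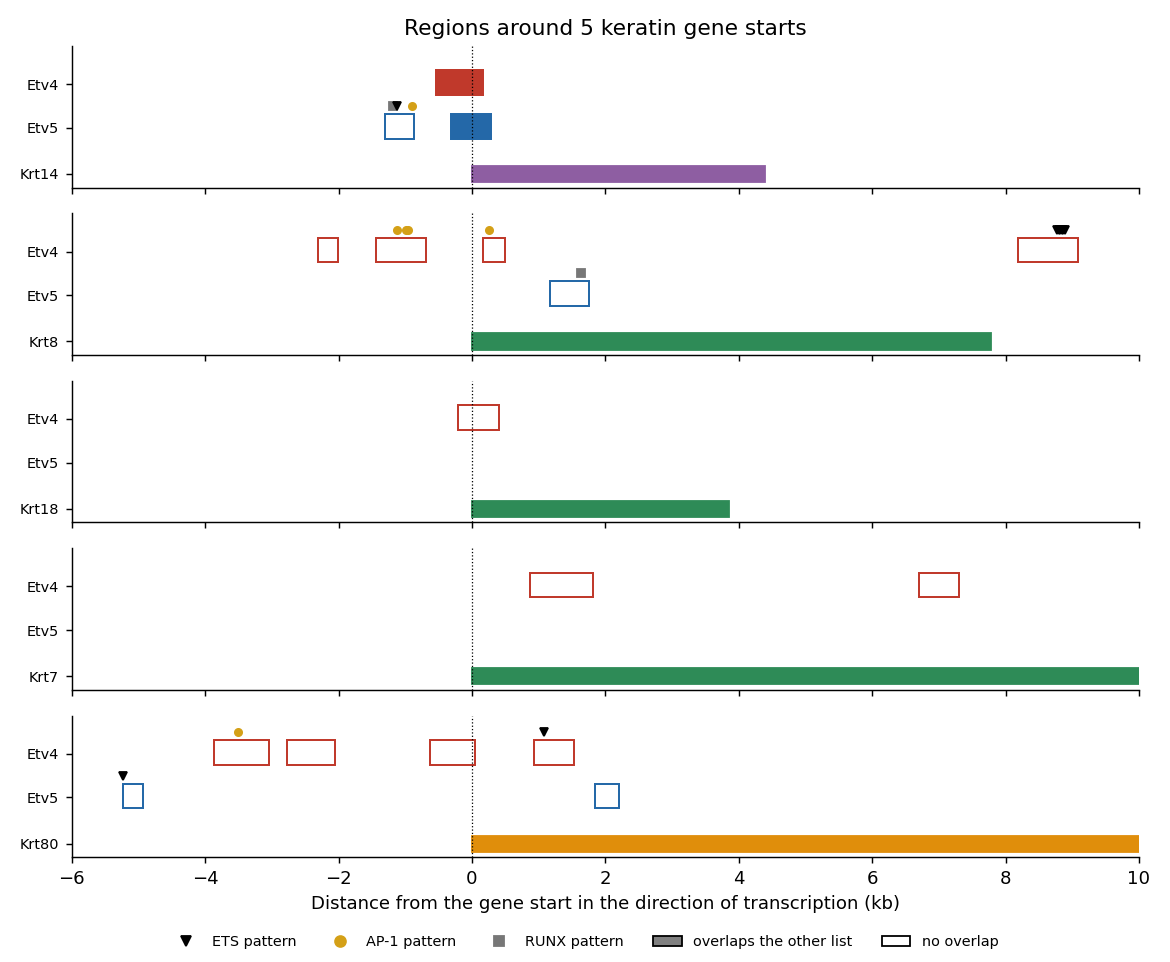
Regions around the starts of the 5 keratin genes with an Etv4 midpoint within 2 kb, by distance in kb in the direction of transcription, with symbols for ETS, AP-1 and RUNX matches in 500 bp around the midpoint and filled bars for regions that overlap the other list. Etv4 regions spanned the starts of Krt14, Krt18 and Krt80, and an Etv5 region spanned that of Krt14.

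Krt14, which encodes the basal type I chain (ENSMUSG00000045545.8, chr11:100203162-100207548, minus strand), was the only one of the 10 genes with overlapping regions of both lists at its start. The Etv4 region chr11:100207376-100208085 was centred 0.182 kb and the Etv5 region chr11:100207262-100207859 only 0.012 kb from the start, and they overlapped by 484 bp. They were at 26.3% and 29.3% of their lists by number. A second Etv5 region, chr11:100208412-100208854, was centred 1.08 kb upstream, had no Etv4 counterpart and stood at 53.7% of its list. In contrast to the pair at the start, which had no match, it had 1 ETS, 1 AP-1 and 1 RUNX match, of which the AP-1 match at chr11:100208442-100208448 falls outside the window printed above. The partner of Krt14 in basal cells, Krt5, had no region of either list in its window.

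Krt17, a type I keratin that is induced in injured epithelium (ENSMUSG00000035557.9, chr11:100256217-100261029, minus strand), had 8 Etv4 and 6 Etv5 regions, each of them outside the gene. Upstream of Krt17 were 6 Etv4 and 3 Etv5 regions, and 4 and 3 of the midpoints were in the antisense gene Gm14206. The pair chr11:100286798-100287611 (Etv4) and chr11:100287066-100287663 (Etv5), 26.2 and 26.3 kb upstream, overlapped by 546 bp and had 1 AP-1 match in each region. A second pair followed at 28.3 and 28.0 kb, with an overlap of 178 bp. Downstream of Krt17, a pair spanned the start of the next keratin gene, Krt16, a type I keratin that is likewise induced in injured epithelium. This was the only other keratin gene with midpoints of both lists within 2 kb of its start. The regions were chr11:100248768-100249629 for Etv4 and chr11:100248865-100249265 for Etv5, centred 0.296 and 0.163 kb from the start of Krt16 and 11.8 and 12.0 kb from that of Krt17. The Etv4 region held 2 AP-1 matches and the Etv5 region 1 of them, with the other in its flank, and neither had an ETS match. The Etv4 region was number 1538 of its list (11.3%), whereas the Etv5 region was number 5186 (62.5%).

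**Figure D4:**
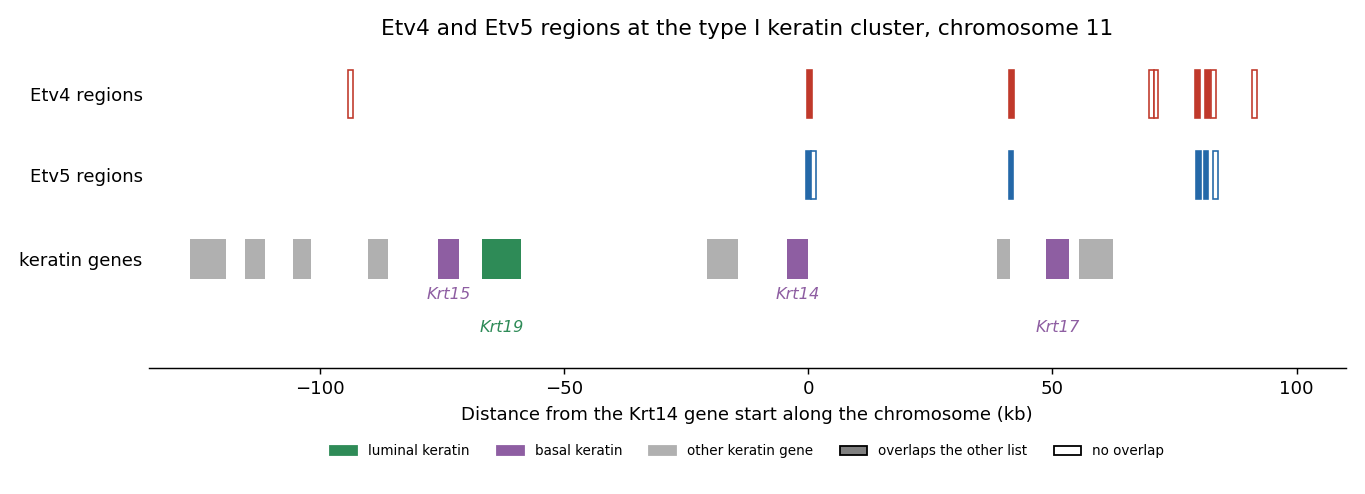
Listed regions and keratin genes along chromosome 11, by distance from the start of Krt14 in kb, with filled bars for regions that overlap the other list. Genes are drawn to scale, regions are drawn at a minimum width, and only the regions assigned to the 10 genes are drawn; overlapping pairs lay at Krt14, at the neighbour of Krt17 and beyond Krt17, and Krt15 and Krt19 had a single Etv4 region.

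Krt15, a basal type I keratin (ENSMUSG00000054146.8, chr11:100131758-100135928), and Krt19, a luminal type I keratin (ENSMUSG00000020911.14, chr11:100140810-100148665), stand next to each other on the minus strand and had the Etv4 region chr11:100113677-100114001 in common. It was 22.1 kb from the start of Krt15 and 34.8 kb from that of Krt19, and at 94.4% of its list by number it was among the last. It had 1 AP-1 match. The nearest Etv5 region was 71.6 kb from the start of Krt15 and 58.9 kb from that of Krt19. Between the Etv4 region and the pair at Krt14, no region of either list lay in 93.3 kb, a stretch with 4 protein-coding genes, all keratins. Stretches of this length were common, whatever their gene content, since 31.8% of the gaps of the joined lists were at least as long and held 90.2% of all bases in gaps. In all, the joined windows of Krt15 and Krt19 had 0.855 Etv4 regions per 100 kb, close to the 0.934 of chromosome 11, whereas those of Krt14 and Krt17 had 5.07 Etv4 and 3.8 Etv5 regions per 100 kb.

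The basal pair of neighbours on chromosome 15, Krt5 (ENSMUSG00000061527.7, chr15:101707070-101712898) and Krt6a (ENSMUSG00000058354.7, chr15:101689910-101694307), both on the minus strand, had 0 regions in joined windows of 123 kb. Krt6a encodes a type II chain of stressed and injured epithelium. In these lists the 5 basal genes thus ranged from 0 regions at Krt5 and Krt6a to 8 Etv4 and 6 Etv5 regions at Krt17. Those of Krt17 include all regions of Krt14.

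The other 43 keratin genes, which include hair and inner root sheath keratins, served for comparison on the same chromosomes. Etv4 regions were in or within 50 kb of 21 and Etv5 regions of 18 of them, beside 53.4% and 42.7% of all protein-coding genes. On chromosome 11 these were 15 and 12 of 23 genes, beside 71.7% and 59.5% of the genes there, and on chromosome 15 they were 6 and 6 of 20 genes, beside 71.8% and 61.4%. Within 2 kb of the start, Krt16 was the only one of the 43 with a midpoint of either list, compared with 5 and 2 of the 10 luminal, basal and Krt80 genes and with 15.4% and 8.73% of all genes. The windows of many of the other genes contain the same regions as those of the 10, and no test was made.

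The regions of both lists were then compared with each other. Overlap with the Etv5 list by at least 1 bp was found for 14 of the 35 Etv4 regions (40%, with exact Clopper-Pearson 95% limits of 23.9 and 57.9%), beside 37.8% of the whole Etv4 list. Conversely, 13 of the 21 Etv5 regions overlapped the Etv4 list (61.9%, limits 38.4 and 81.9%), beside 63.2% of the whole Etv5 list. The overlap at the keratin genes was thus close to that of the lists. The limits cover counting error only and treat neighbouring regions as independent. The overlaps ranged from 82 to 776 bp with a median of 438 bp. Of the 5 genes with an Etv4 region near the start, only Krt14 had an overlapping pair there. Krt8 and Krt14 had midpoints of both lists near the start, as did 1112 of all 3386 protein-coding genes with an Etv4 midpoint there. Overlap at the start was not counted over all genes.

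The region number was used to order regions within a list. Of the Etv4 keratin regions, 24 of 35 (68.6%, limits 50.7 and 83.1%) were in the first 50% of their list, with a median of 35.8% of the list. Of the Etv5 regions, 8 of 21 (38.1%, limits 18.1 and 61.6%) were, with a median of 59.5%. Split by overlap, 7 of 13 overlapping Etv5 regions (53.8%, limits 25.1 and 80.8%) and 1 of 8 others (12.5%, limits 0.316 and 52.7%) were in the first 50%, beside 63.4% and 27% in the whole Etv5 list. For Etv4, these were 10 of 14 overlapping regions (71.4%, limits 41.9 and 91.6%) and 14 of 21 others (66.7%, limits 43.0 and 85.4%), beside 72.4% and 36.4% in the whole list. The single non-overlapping Etv5 region of the first 50% was the intronic one in Krt8. The median length of overlapping and other keratin regions was 758 and 641 bp in the Etv4 list, beside 728 and 526 bp over the whole list. In the Etv5 list it was 457 and 340 bp, beside 589 and 425 bp. A longer region meets a region of the other list more readily by construction, so no difference is read from these lengths.

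**Figure D5:**
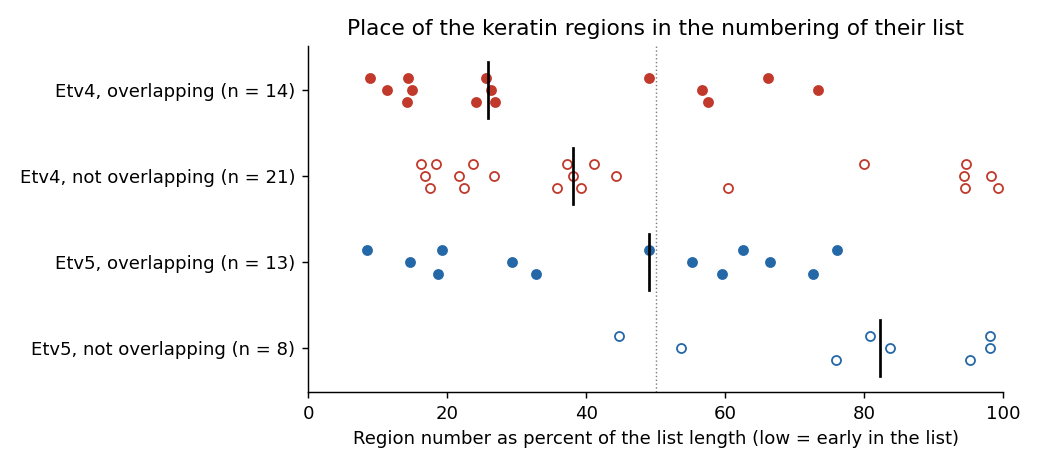
Region number of each keratin region as a percent of the length of its list (horizontal axis), by list and overlap, with a black bar at each median and a dotted line at 50%. The medians were 26.0 and 38.1% for overlapping and other Etv4 regions and 49.0 and 82.3% for overlapping and other Etv5 regions.

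By midpoint, 7 Etv4 regions were in exons, 18 in introns and 10 in intergenic sequence, and 1, 12 and 8 Etv5 regions were. In the whole lists, these places held 17.7%, 42% and 40.3% of the Etv4 regions and 13.2%, 43.3% and 43.5% of the Etv5 regions. Many of the introns were those of the antisense genes named above, and 9 Etv4 and 4 Etv5 regions reached into 1 of the 10 genes. Another keratin gene was often closer. The nearest start of a protein-coding gene was that of 1 of the 10 genes for 19 of 35 Etv4 and 12 of 21 Etv5 regions, and that of any keratin for 31 and 17.

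The ETS pattern was present in 500 bp around the midpoint of 5 of 35 Etv4 regions (14.3%, limits 4.81 and 30.3%) and 3 of 21 Etv5 regions (14.3%, limits 3.05 and 36.3%), compared with 10.2% of the whole Etv4 list and 7.92% of the whole Etv5 list. All matches were CAGGAAGT, and CCGGAAGT did not occur. The 5 Etv4 regions were the repeat downstream of Krt8, the intronic region of Krt80, and 1 region each of the Krt80, Krt7 and Krt18 pairs printed above. The 3 Etv5 regions were the one 1.08 kb upstream of Krt14, one 5.08 kb upstream of Krt80, in which the match lies just beyond the end of the listed region, and that of the Krt18 pair. No Etv4 region of chromosome 11 had an ETS match (0 of 9, which allows up to 33.6% by the same limits).

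The ETS pattern is longer than the AP-1 pattern and occurs less readily in any sequence, and shares outside the lists were not tested. The AP-1 pattern was more frequent than the ETS pattern in both lists. It was present in 16 of 35 Etv4 regions (45.7%, limits 28.8 and 63.4%) and in 10 of 21 Etv5 regions (47.6%, limits 25.7 and 70.2%), compared with 37.4% and 35.7% of the whole lists. Both regions of 8 of the 14 overlapping pairs had an AP-1 match, as did those of 2124 of all 5317 overlapping pairs of the lists (39.9%). The RUNX pattern was present in 6 of 35 Etv4 regions (17.1%, limits 6.56 and 33.6%) and 10 of 21 Etv5 regions (47.6%, limits 25.7 and 70.2%), compared with 24.7% and 23.9% of the whole lists. The limits of the RUNX shares of the 2 lists overlapped, and the contrast depended on the window. In the whole region, an alternative chosen after seeing the data, 9 of 35 Etv4 regions (25.7%) and 8 of 21 Etv5 regions (38.1%) had a RUNX match, beside 28.3% and 25.0% of the nuclear regions of each list. In 500 bp around the midpoint, none of the 3 patterns was found in 15 of 35 Etv4 and 7 of 21 Etv5 regions, beside 42.8% and 45.8% of the whole lists. Those that spanned the starts of Krt14, Krt18 and Krt80 were among them. The Etv4 region at the start of Krt80 had an AP-1 match outside these 500 bp, at chr15:101370701-101370707.

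Finally, genes whose products attach keratin filaments or form other intermediate filaments were examined. All 10 genes for cytolinkers and desmosomal plaque proteins (Plec, Dsp, Dst, Evpl, Ppl, Eppk1, Jup, Pkp1, Pkp2 and Pkp3) had regions of both lists in or within 50 kb, beside 36.4% of all protein-coding genes. That share was 54.4% on chromosome 11, which holds Jup and Evpl, and 55.9% on chromosome 15, which holds Eppk1 and Plec. The windows of Eppk1 and Plec overlap. Most numerous were the regions at Pkp1, which encodes a desmosomal plaque protein, with 14 Etv4 and 10 Etv5 regions, and at the cytolinker genes Dst, with 14 and 5, and Plec, with 13 and 7. These genes differ in length, and so do their windows. Pkp1 spans 47.8 kb, Plec 61.6 kb and Dst 400 kb, and 13 of the 14 Etv4 regions of Dst were inside the gene. Of the 10, only Jup (plakoglobin) had midpoints of both lists within 2 kb of its start, 0.185 kb for Etv4 and 0.419 kb for Etv5, beside 5.07% of all protein-coding genes. Among 13 other intermediate filament genes, 10 had an Etv4 and 9 an Etv5 region in or within 50 kb, beside 53.4% and 42.7% of all genes. Both lists were within 2 kb of the starts of 3 of them. These were the mesenchymal filament gene Vim, with the Etv4 midpoint at 0.027 kb and the Etv5 midpoint at 1.69 kb, and the nuclear lamin genes Lmna and Lmnb1, again beside 5.07% of all genes. No region of either list was found in or within 50 kb of Synm, Nefm or Nefl, of which Nefl lies inside the borders of Nefm.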

How the data were processed

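Regions bound by Etv4 and by Etv5 were measured by ChIP-seq, with 1 library per antibody. The authors mapped reads of 36 bases to mm10 (the submitters' processing notes name Bowtie) after 15 cycles of PCR. The read length and mapping are stated for the accessibility libraries, whose protocol the ChIP-seq followed. Regions were called by the authors in CisGenome (one-sample analysis, window of 300 bp, p threshold of 0.1). Without a control library, this does not correct for mappability, copy number or accessible chromatin. In the deposited BED files the score has the single value 1000 and was not used. Each region has a number of its own in the name column. What it ranks is not stated, and it was used as an order alone. Read counts are not in the files, so the depth is unknown. Columns of no other sample were present.

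Gene borders were those of GENCODE M21 and sequence that of RefSeq GRCm38.p6. Distances ran from the region midpoint to the annotated gene start. Regions overlapped when at least 1 bp was in common, and patterns were searched in 500 bp around the midpoint on both strands. Intervals are exact binomial (Clopper-Pearson, 95%). Repeated sequence was measured as the share of 36-base sequences present more than once in the assembly, and regions above 50% were called mostly multicopy. Libraries were grouped by the antibody in the labels, and no test between them was made. The functions were tested on simulated data. The 10 genes, the partner genes, the patterns and the windows were chosen with earlier results of these data known. Named were the 10 genes, other keratin and partner genes with both lists within 2 kb of the start, genes in or nearest to which a region lay, and partner genes at the extremes of the counts, the last after their values were seen. Sequences were printed for overlapping regions within 2 kb of the start of 1 of the 10 genes or with an ETS pattern, at most 300 bases each and without UTR bases, and for 3 windows added later. Alternatives varied the window, the share of the list, the overlap, the start distance, the pattern and its window, multicopy regions and merging. Tools were Python 3.11.15, scipy 1.17.1 for intervals, numba 0.67.0 for repeated sequence, pandas 2.3.3 and numpy 2.4.6 for tables, and matplotlib 3.10.9.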

Additional observations from a re-analysis of the deposited data

How the results depend on the processing

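Of 70 alternative values, 58 stayed within 1.5 times the reported count or inside the 95% limits of the reported share, and 12 moved beyond them. The limits are wide, and 3 values inside them still differed by 1.5 times or more. The first was 25% overlap of the Etv4 regions with both lists cut to their first 50%, so that fewer Etv5 regions were left to overlap. Another was 4.76% of the Etv5 regions with an ETS match in a window of 200 bp. The last was 25.7% of the Etv4 regions with a RUNX match in the whole region. With a window of 10 kb, the Etv4 regions at the 10 genes numbered 17 and the Etv5 regions 7, and 9 and 4 of the other keratin genes had an Etv4 or Etv5 region, since fewer bases were searched. With the first 50% of the list by region number, 8 Etv5 regions were left, and 75% of them had an AP-1 match. At a distance of 1 kb, 1 gene (Krt14) had an Etv5 midpoint near its start. In a window of 200 bp, 2.86% of the Etv4 regions had an ETS match and 23.8% of the Etv5 regions an AP-1 match, and 23.8% a RUNX match (an alternative chosen after seeing the data), since fewer bases were searched. With CCGGAAGT alone, 0% of the Etv4 and 0% of the Etv5 regions had a match. Beyond the smaller searches, the cause was not tested.

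The limits are those of 1 library per antibody, an unknown depth and calling without a control library. The number of genes is small, windows of neighbours are not independent, and the presence of a region says nothing on the level of the RNA. No paired analysis was possible because there was 1 library for each antibody and no result came from a test between replicates.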
